A study of Mus musculus with 2 samples.

Results

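The genes described here encode amino acid transporters of 6 solute carrier (SLC) families in mouse macrophages grown from bone marrow. They are the rows of the deposited count table whose symbol begins with Slc1a, Slc3a, Slc7a, Slc36a, Slc38a or Slc43a followed by a digit. The rule found 45 of the 46095 genes in the table. Of these, 42 are transporters or transporter subunits, and 3 matched by name only: Slc7a6os, the gene beside Slc7a6, and the opposite-strand RNA genes Slc36a1os and Slc36a3os. At least 1 read was found for 31 of the 45, and 14 had none in either library.

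RNA sequencing compared 2 libraries of C57BL/6 macrophages, 1 per genotype, from femur and tibia marrow kept for 5 days in DMEM containing the macrophage growth factor M-CSF at 100 ng/ml, which drives marrow progenitors to become macrophages. The TIPE1-KO library is labelled TIPE1-/-, and the series' design text describes mice carrying LyzM-Cre with floxed Tipe1 alleles (Tipe1f/f). LyzM-Cre expresses Cre recombinase in myeloid cells, so other cells in the culture would keep the floxed alleles. The WT library is labelled wild type, whereas the design text describes the control mice as Tipe1f/f, so both genotypes may carry the floxed alleles. By that text Cre is named for the TIPE1-KO mice only, so Cre itself and the loss of Tipe1 cannot be told apart here. How many mice gave each library is not given in the sources used here, and no difference below has a replicate check.

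The 2 libraries, called WT and TIPE1-KO below, held 11782664 and 15815956 counted reads. Tnfaip8l1, which encodes TIPE1, had 21 reads in WT and 3 in TIPE1-KO. Scaled to library size, the ratio was 0.112 (95% counting interval 0.0214 to 0.375). The gene was too low to be among those compared below, and the part of other cell types in its difference was not tested. All 12 macrophage markers examined were present, from Cd163 at 2.15 and 3.44 reads per 1000000 (CPM) to Lyz2 at 14958 and 8028 CPM in the WT and TIPE1-KO libraries. Stromal, neutrophil and B cell markers were found in both libraries and were lower in the TIPE1-KO library. The 16 stromal markers summed to 2073 CPM in WT and 184 CPM in TIPE1-KO. Of the 15 with a mean of at least 1 CPM, 14 were lower, Thy1 was not, and Tagln had no reads. The 10 neutrophil markers summed to 704.7 and 504.7 CPM, with 4 of 9 counted as lower, and the 6 B cell markers to 14.7 and 2.59 CPM, with 5 of 5 counted as lower, 4 of which reached that mean only through the WT library. In such bulk RNA, fewer cells of a type and less RNA per cell cannot be told apart.

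Amino acids cross membranes through carriers with overlapping substrates. Exchangers trade one amino acid for another, whereas sodium- or proton-coupled carriers accumulate them. Several SLC7 proteins are light chains that reach the cell surface only when bound to a heavy chain of the SLC3 family, most often CD98 (Slc3a2). In macrophages, cystine taken up by the Slc7a11 protein (xCT) feeds glutathione synthesis, and arginine taken up by CAT1 and CAT2 is the substrate of arginase and of inducible nitric oxide synthase. Carriers on the lysosome help to report its amino acid content to the growth kinase complex mTORC1. When amino acids run short, the transcription factor ATF4 binds C/EBP-ATF composite sites and raises many transporter genes.

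The 3 called members with an entry in the RefSeq promoter table (GRCm38.p6) are shown by the 250 bases before their annotated start, because they differ in a wider form of the composite site that was chosen after the data were seen. Of the 45 members, 34 had an entry, with 45 windows in all. The motifs searched on both strands were TGATGNAAT (composite site), TGACNNNGC (antioxidant response element) and CACGTG (E-box). The wider form, TGATGNAAN, contains the first motif. Capitals mark the matches, and a match is not evidence of binding.
Slc7a11, chr3:50443614-50443863, minus strand: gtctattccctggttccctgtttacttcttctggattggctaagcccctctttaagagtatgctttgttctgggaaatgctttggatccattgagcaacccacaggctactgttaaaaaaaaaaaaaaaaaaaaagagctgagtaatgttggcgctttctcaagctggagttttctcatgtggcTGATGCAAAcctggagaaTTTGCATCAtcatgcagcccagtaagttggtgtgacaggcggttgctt
Slc7a1, distal start, chr5:148399905-148400154, minus strand: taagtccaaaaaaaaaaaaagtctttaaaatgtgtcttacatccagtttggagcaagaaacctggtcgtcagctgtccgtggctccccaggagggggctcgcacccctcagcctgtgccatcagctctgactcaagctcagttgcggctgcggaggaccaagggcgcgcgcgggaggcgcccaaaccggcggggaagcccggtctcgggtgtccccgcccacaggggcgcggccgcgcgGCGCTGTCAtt
Slc7a1, proximal start, chr5:148392816-148393065, minus strand: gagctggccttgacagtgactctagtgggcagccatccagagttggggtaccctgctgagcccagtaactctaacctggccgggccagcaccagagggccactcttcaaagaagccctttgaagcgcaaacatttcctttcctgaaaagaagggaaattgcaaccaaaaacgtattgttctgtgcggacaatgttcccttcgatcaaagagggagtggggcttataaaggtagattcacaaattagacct
Slc1a4, chr11:20332714-20332963, minus strand: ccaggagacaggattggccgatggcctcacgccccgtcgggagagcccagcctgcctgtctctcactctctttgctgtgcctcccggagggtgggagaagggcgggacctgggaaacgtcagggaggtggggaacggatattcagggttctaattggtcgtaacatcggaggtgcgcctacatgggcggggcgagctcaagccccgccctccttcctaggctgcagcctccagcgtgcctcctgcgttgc

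The Slc7a11 window held the wider composite site 2 times, as TGATGCAAA beginning 66 bases before the start and, on the opposite strand, as TTTGCATCA beginning 48 bases before it. The distal Slc7a1 window held 1 antioxidant element, GCGCTGTCA, beginning 11 bases before the start, and neither the proximal window nor that of Slc1a4 held any of the motifs. The 32851 windows counted left out 1 chromosome, on which no member lies. Of these windows, 3.44% held the wider composite site, 0.816% the narrower one, 10.2% the antioxidant element and 6.02% the E-box. Among the 45 windows of members, 3 held the wider composite site (1 of Slc7a11 and 2 of Slc7a7), 0 the narrower one, 5 the antioxidant element and 7 the E-box. These letters say nothing about the factors where they are missing.

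Of the 45 members, 23 had a mean of at least 1 CPM over the 2 libraries and were compared, 22 of them transporters. A gene was called where TIPE1-KO and WT differed by 1.5-fold or more and the 95% interval of their ratio, which covers counting error only, did not contain 1. Slc7a11 and Slc7a1 were higher in the TIPE1-KO library, Slc1a4 and Slc36a2 were lower, and 19 were neither. Over all 12495 genes compared, 6.47% were counted as higher and 7.23% as lower, so 2 of 23 in each direction is near the background. At 2-fold the shares were 2.59% and 4.78%, with 0 members higher and 1 lower. The median log2 ratio of the 23 members, with 0.5 CPM added to both values, was 0.0056, beside 0.011 for all genes compared. Intervals lay entirely above 1 for 7 members and entirely below 1 for 9, where 22.8% and 18.4% of all genes compared did so. Genes with more reads have narrower intervals, so these counts are not read as a difference from other genes.

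**Figure D1:**
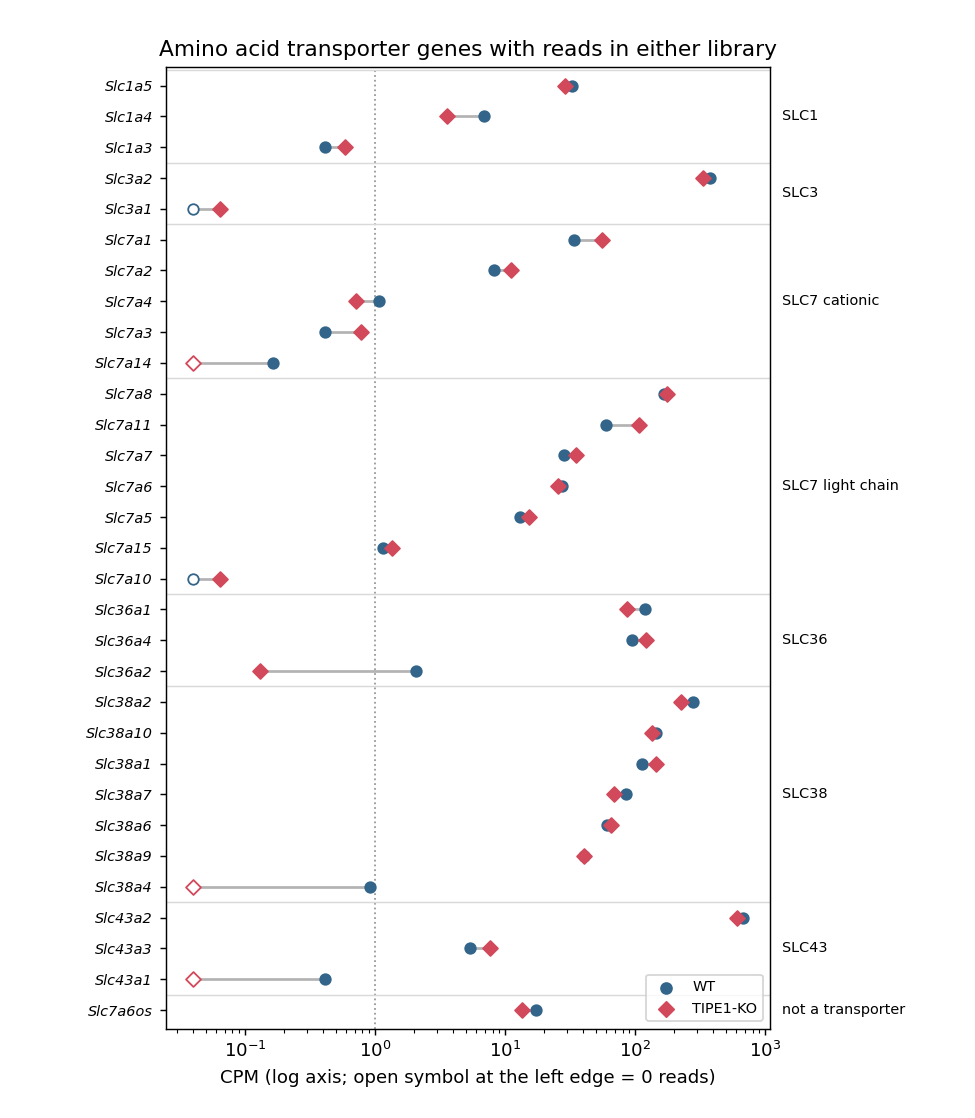
Expression of the 31 members with at least 1 read, in CPM on a log axis, for the WT library (circles) and the TIPE1-KO library (diamonds). Symbols for one gene are joined, open symbols at the left edge stand for 0 reads, and the dotted line marks 1 CPM. The pairs of Slc7a11, Slc7a1, Slc1a4, Slc36a2 and Slc38a4 are among those visibly apart. Pairs with few reads, such as Slc43a1, Slc7a14 and Slc7a3, also stand apart, and the distance to 0 reads depends on where the edge is drawn.

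The 42 transporters together took 28662 reads in WT and 35435 in TIPE1-KO, or 2373 and 2297 CPM, a ratio of 0.968 (0.953 to 0.983). A few genes held most of these reads. Slc43a2 alone took 28.3% of them in WT and 26.6% in TIPE1-KO, Slc3a2 15.8% and 14.6%, and Slc38a2 11.8% and 9.75%. The cationic SLC7 carriers took 1.85% of transporter reads in WT and 2.97% in TIPE1-KO, and the SLC7 light chains 12.4% and 15.6%. The summed CPM of the cationic carriers was 43.8 in WT and 68.3 in TIPE1-KO, 1.56-fold higher (1.40 to 1.73), and that of the light chains was 294.3 and 357.3, 1.21-fold higher (1.16 to 1.27). In sums chosen after the data were seen, the light chains without Slc7a11 had 235.0 and 251.2 CPM, a ratio of 1.069 (1.018 to 1.123), and the cationic carriers without Slc7a1 had 9.94 and 12.6 CPM, a ratio of 1.27 (1.008 to 1.61). The ratios of the summed CPM of the other families were 0.826 (0.728 to 0.937) for SLC1, 0.891 (0.856 to 0.928) for SLC3, 0.960 (0.911 to 1.01) for SLC36, 0.935 (0.909 to 0.962) for SLC38 and 0.911 (0.885 to 0.939) for SLC43.

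Slc7a11 (GRCm38 chromosome 3, 49892526 to 50443614 with its longest isoforms, protein-coding), the cystine and glutamate exchanger xCT, had the highest ratio of the 23 members compared. It had 717 reads in WT and 1637 in TIPE1-KO, 59.4 and 106.1 CPM. The TIPE1-KO level was 1.79-fold higher (1.64 to 1.95). Of the 2 higher members, it was the one whose whole interval lay past 1.5-fold. Its interval overlapped neither that of its heavy chain gene Slc3a2 nor that of Slc7a8, the most abundant light chain.

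Slc3a2, the CD98 heavy chain that anchors light chains in the membrane, had 4541 reads in WT and 5168 in TIPE1-KO. Its level was 376.0 and 335.0 CPM, a ratio of 0.891 (0.856 to 0.927), which is within 1.5-fold. Per kb of merged exon length, which allows genes to be compared, Slc3a2 stood at 106.5 and 94.9 CPM per kb and exceeded every light chain. The 5 CD98 partners Slc7a5, Slc7a6, Slc7a7, Slc7a8 and Slc7a11 summed to 55.3 and 62.6 CPM per kb, or 0.519 and 0.660 of the Slc3a2 level. Slc7a11 made up 7.71% of that light chain sum in WT and 12.2% in TIPE1-KO, and Slc7a8 59.6% and 55.6%. These are RNA levels, and the amounts of the assembled carriers were not measured.

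**Figure D2:**
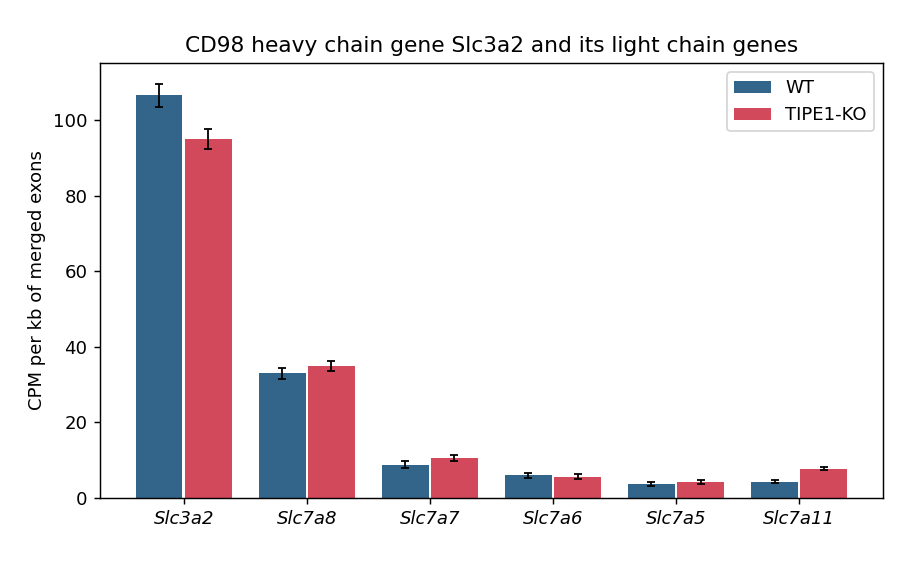
Level of the CD98 heavy chain gene Slc3a2 and its 5 light chain genes in CPM per kb of merged exons, with bars for the WT and TIPE1-KO libraries and 95% Poisson intervals of the reads as error bars. The heavy chain stands above every light chain in both libraries, and Slc7a11 moves from 4.26 to 7.62 CPM per kb.

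The remaining light chain genes lay within 1.5-fold. Slc7a8 (LAT2), an exchanger of neutral amino acids, stood at 165.1 CPM in WT and 174.3 CPM in TIPE1-KO, a ratio of 1.06 (0.996 to 1.12). Slc7a7 (y+LAT1), which exports cationic for neutral amino acids and is mutated in lysinuric protein intolerance, had 28.6 and 34.8 CPM, a ratio of 1.22 (1.06 to 1.40). Its exons share 232 bases with Oxa1l on the opposite strand (545 and 766 reads), and the strand setting of the counting is not given in the sources used here. The related y+LAT2 gene Slc7a6 had 27.2 and 25.4 CPM, a ratio of 0.936 (0.806 to 1.09), and its interval overlapped that of Slc7a7. Slc7a5 (LAT1), the importer of large neutral amino acids such as leucine, was low at 157 and 235 reads, a ratio of 1.17 (0.953 to 1.44). Slc7a15 had 14 and 21 reads. Slc7a10 (Asc-1) had 0 and 1 reads, and Slc7a9, Slc7a12 and Slc7a13 had none. Slc3a1, the heavy chain rBAT that pairs with the Slc7a9 protein in kidney, had 0 and 1 reads.

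Among the cationic carriers, Slc7a1 (chromosome 5, 148327410 to 148399904, protein-coding) encodes CAT1, the widespread importer of arginine and lysine. It had 409 reads in WT and 859 in TIPE1-KO, 33.9 and 55.7 CPM. The TIPE1-KO level was 1.64-fold higher (1.46 to 1.85), the second highest ratio of the 23 members compared. Slc7a2 encodes CAT2, the arginine importer that activated macrophages induce, and had 100 and 172 reads, 8.28 and 11.1 CPM. Its ratio of 1.35 (1.05 to 1.74) did not reach 1.5-fold and its interval overlapped that of Slc7a1. Per kb of merged exons, Slc7a1 stood at 2.94 and 4.83 CPM per kb and Slc7a2 at 0.906 and 1.22, so CAT1 was the more abundant of the pair in both libraries. The orphan or minor members Slc7a3 (5 and 12 reads), Slc7a4 (13 and 11 reads) and Slc7a14 (2 and 0 reads) were under 1 CPM on average.

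The SLC1 family contains the glutamate transporters and the neutral amino acid exchangers ASCT1 and ASCT2. Slc1a4 (chromosome 11, 20302180 to 20332713, protein-coding), which encodes ASCT1, an exchanger of serine, alanine and cysteine, had 83 reads in WT and 55 in TIPE1-KO, 6.87 and 3.56 CPM. It was 1.93-fold lower (1.35 to 2.76) in TIPE1-KO, the library with the lower stromal, neutrophil and B cell markers, whose part in this was not tested. Slc1a5, which encodes the glutamine exchanger ASCT2, had 398 and 449 reads, 32.95 and 29.10 CPM, a ratio of 0.883 (0.770 to 1.01). The 2 intervals did not overlap. Of the glutamate transporters, Slc1a3 (EAAT1) had 5 and 9 reads, and Slc1a1, Slc1a2, Slc1a6 and Slc1a7 had none, while a count of 0 allows up to 0.248 CPM in WT and 0.194 CPM in TIPE1-KO (3 reads).

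The SLC36 proteins carry small amino acids with protons, and PAT1 (Slc36a1) and PAT4 (Slc36a4) sit largely on lysosomes and other inner membranes. The ratios of these 2 genes lay on opposite sides of 1. Slc36a1 had 1448 reads in WT and 1342 in TIPE1-KO, 119.9 and 87.0 CPM, a ratio of 0.726 (0.673 to 0.782). Slc36a4 had 1151 and 1873 reads, 95.3 and 121.4 CPM, a ratio of 1.27 (1.18 to 1.37). The order of the pair was therefore reversed between the libraries, also per kb of merged exons (21.3 against 14.6 CPM per kb in the WT library, 15.5 against 18.6 in the TIPE1-KO library), although neither reached 1.5-fold.

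Slc36a2 (chromosome 11, 55158470 to 55185077, protein-coding), which encodes PAT2, a glycine and proline carrier best known from kidney and muscle, lies in a cluster with Slc36a3, Slc36a3os, Slc36a1os and Slc36a1. It had 25 reads in WT and 2 in TIPE1-KO, 2.07 and 0.130 CPM, 15.97-fold lower (3.98 to 139.1). The wide interval reflects the 2 reads. Slc36a3 and both opposite-strand RNA genes had no reads, so among these clustered genes Slc36a1 and Slc36a2 were the ones with reads. Slc36a2 passed the filter through the WT library. It was low where the stromal, neutrophil and B cell markers were also low (2073 against 184 CPM for the summed stromal markers), and their part in the result was not tested.

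**Figure D3:**
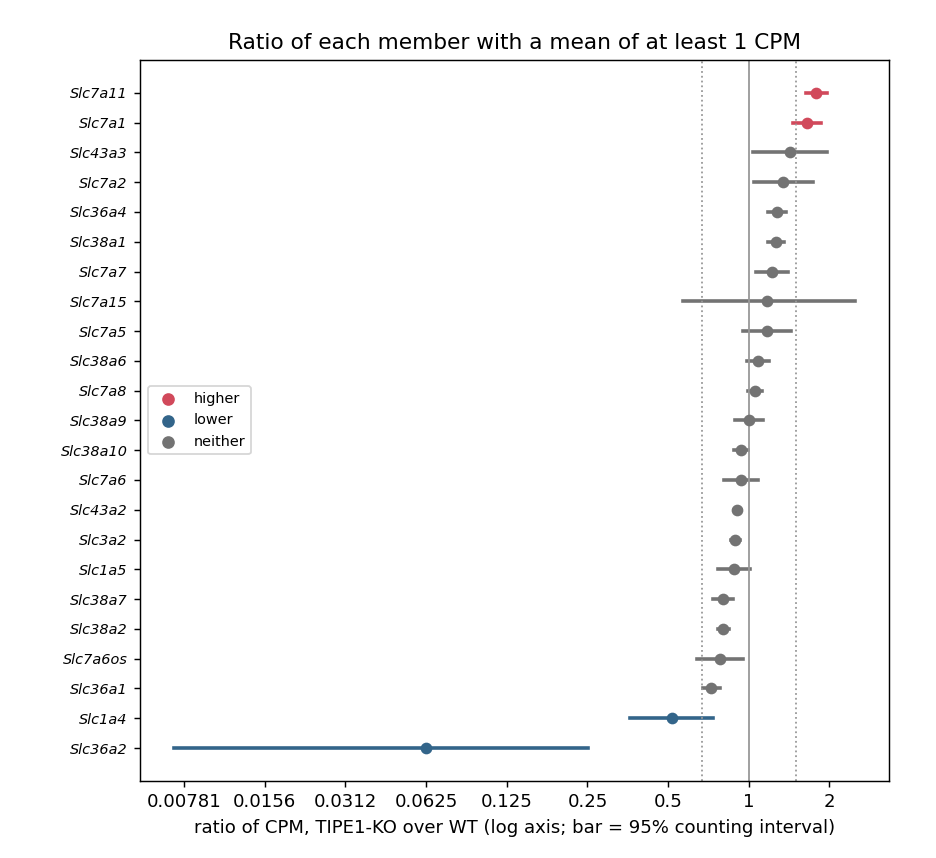
Ratio of CPM in the TIPE1-KO library over the WT library for the 23 members with a mean of at least 1 CPM, on a log axis, with 95% counting intervals as bars. The solid line marks a ratio of 1 and the dotted lines 1.5-fold in either direction; Slc7a11 and Slc7a1 lie above, Slc1a4 and Slc36a2 below, and 19 members are grey.

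SLC38 proteins import or release neutral amino acids, above all glutamine, and 6 of the 11 genes passed the filter. Slc38a2 (SNAT2), the sodium-coupled carrier induced when amino acids are scarce, had 279.0 CPM in WT and 223.9 CPM in TIPE1-KO, a ratio of 0.803 (0.765 to 0.842). Its neighbour Slc38a1 (SNAT1), 44.5 kb away on chromosome 15, had 113.7 and 143.4 CPM, a ratio of 1.26 (1.18 to 1.35). The intervals of these 2 glutamine carriers did not overlap and lay on opposite sides of 1. Slc38a7 (SNAT7), which exports glutamine from lysosomes, had 85.03 and 68.31 CPM, a ratio of 0.803 (0.737 to 0.876). Slc38a9, the lysosomal arginine sensor of mTORC1, was level at 40.2 and 40.3 CPM, a ratio of 1.004 (0.890 to 1.13). Slc38a10 had 144.9 and 135.6 CPM and Slc38a6 60.3 and 65.3 CPM, with ratios of 0.936 and 1.08.

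Slc38a4 (SNAT4), an imprinted carrier best known from liver and placenta, lies 295.1 kb beyond Slc38a2. It had 11 reads in WT and 0 in TIPE1-KO, at least 4.68-fold lower when 3 reads are taken as the floor of the TIPE1-KO library, while the counting interval of its ratio also allows 3.21-fold. It did not pass the filter. As for Slc36a2, the markers of other cell types were lower in the same library, and their part was not tested. Slc38a3 (SNAT3), Slc38a5 (SNAT5), Slc38a8 and Slc38a11 had no reads.

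In the SLC43 family, Slc43a2 encodes LAT4, which lets branched-chain amino acids, phenylalanine and methionine out of or into cells without exchange. It had 8113 reads in WT and 9408 in TIPE1-KO, 671.7 and 609.8 CPM, the most reads of all members in both. Its ratio was 0.908 (0.881 to 0.935). Per kb of merged exons it stood at 66.9 and 60.7 CPM per kb, behind Slc3a2 alone. Slc43a3, reported as a nucleobase carrier, had 65 and 118 reads, a ratio of 1.42 (1.04 to 1.95). Slc43a1 (LAT3) had 5 and 0 reads and was under the filter. Slc7a6os, which is no transporter, had 207 reads in each library, a ratio of 0.783 (0.642 to 0.954).

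Genes of the same pathways were examined in the same way, and each count is to be read against the 6.47% higher and 7.23% lower of all genes compared. Of 9 other amino acid or dipeptide transporters compared, 1 was higher and 1 lower, with a median log2 ratio of -0.08 beside 0.011 for all genes. Slc15a3, a lysosomal histidine and peptide carrier, stood at 355.6 CPM in WT and 546.0 CPM in TIPE1-KO, 1.54-fold higher (1.48 to 1.59), but under 1.5-fold when scaled by total counts or macrophage markers. The lower one was the glycine transporter gene Slc6a9 (58 and 32 reads), named because it completes the count. Of 33 genes of amino acid sensing and mTORC1, 0 were higher and 2 lower, with a median of -0.03, and 2 of 33 is near the 7.23% of all genes. The lower ones were Ddit4, an inhibitor of mTORC1 (13.2 and 3.11 CPM), and the arginine sensor gene Gatsl3 (Castor1; 51 and 33 reads), which was likewise named to complete the count.

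Of 26 genes of the ATF4 response, 4 were higher and 3 lower, beside 6.47% and 7.23% of all genes, with a median log2 ratio of 0.14 beside 0.011. Atf4 itself stood at 256.5 CPM in WT and 297.1 CPM in TIPE1-KO, a ratio of 1.16 (1.11 to 1.21). The higher ones were the folate enzyme gene Mthfd2 (52.3 and 100.6 CPM), the asparagine synthetase gene Asns (35.7 and 56.4 CPM), the pseudokinase gene Trib3 (9.52 and 14.6 CPM) and Eif2ak2, the interferon-induced kinase PKR (102.9 and 155.7 CPM). The last is an upstream kinase that is also interferon-stimulated. Scaled by total counts, 2 of these 4 stayed past 1.5-fold, and scaled by macrophage markers 1 did. The mitochondrial folate enzyme gene Aldh1l2 was lower, at 11.8 and 1.62 CPM, as were Vldlr (86 and 32 reads) and Pycr1 (20 and 6 reads), which passed the filter only through the WT library. The markers of other cell types were lower in the same library, and their part in these was not tested.

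Of 14 cystine, glutathione and related redox genes compared, 2 were higher and 0 lower, beside 6.47% and 7.23% of all genes. Their median log2 ratio was 0.22 beside 0.011. Not all act downstream of xCT, since the list also holds Txnrd1 and the regulator genes Nfe2l2, Keap1 and Bach1. The thioredoxin reductase gene Txnrd1 stood at 264.4 CPM in WT and 414.7 CPM in TIPE1-KO, and the glutathione synthetase gene Gss at 5.30 and 8.04 CPM. Neither was past 1.5-fold when scaled by total counts or macrophage markers. The glutamate-cysteine ligase subunits, which take the first step of glutathione synthesis, had ratios of 0.871 (0.787 to 0.964) for the catalytic Gclc and 1.26 (1.18 to 1.35) for the modifier Gclm. Of 17 genes that make or use arginine, glutamine and related compounds, 1 was higher and 4 lower, beside the same 6.47% and 7.23%, with a median of 0.026. The argininosuccinate synthase gene Ass1, which acts on the way from citrulline back to arginine, stood at 15.6 and 28.3 CPM, 1.81-fold higher (1.52 to 2.16). Asl, whose enzyme takes the next step and releases arginine, was not called. It stood at 44.4 CPM in WT and 40.8 CPM in TIPE1-KO, a ratio of 0.920 (0.819 to 1.03). The genes of enzymes that consume arginine were lower, namely Arg1 (330.5 and 94.7 CPM), Arg2 (14.1 and 5.83 CPM) and Nos2 (6.95 and 3.37 CPM). The glutamine synthetase gene Glul was lower at 464.0 and 251.7 CPM. The stromal, neutrophil and B cell markers were lower in the same library, and their part in these lower genes was not tested.

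**Figure D4:**
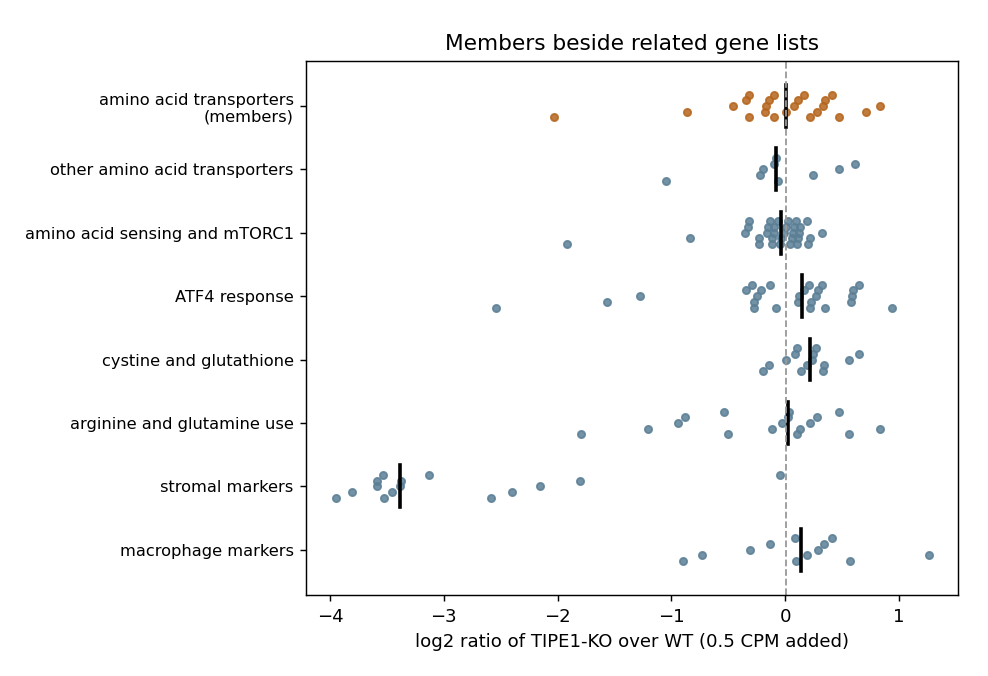
Log2 ratio of TIPE1-KO over WT, with 0.5 CPM added, for each compared gene of the amino acid transporters, of 5 related lists and of the stromal and macrophage markers. Black bars are medians and the dashed line is the median of all genes compared; the transporters centre near it, the stromal markers at -3.38.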

How the data were processed

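Total RNA of 2 macrophage libraries was sequenced by Illumina protocols, and the 1 deposited table gave raw read counts for 46095 gene symbols, per the file headers. The submitters' processing notes name HISAT2 and GRCm38. Counting program, annotation, strand setting and read filters: not given in the sources used here. Near-identical or overlapping genes can therefore exchange reads.

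Counts were scaled to CPM by TMM effective library sizes (edgeR 4.0.16, R 4.3.3). Ratios carry exact Clopper-Pearson 95% intervals of the split of reads (scipy 1.17.1), which cover counting error only, since reads without molecular identifiers are not independent molecules. Summed levels carry exact Poisson intervals. With 1 library per genotype no p-value was computed. Genes averaging 1 CPM or more were compared. The calculation was tested on simulated Poisson counts without variation between mice or cultures. That test checks the handling of counting error only and says nothing about replicate variation. Positions and merged exon lengths came from GENCODE M21 (GRCm38), in which all 45 members matched, and promoters from RefSeq.

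Every matched row was named, as were called members of each related list, up to 4 per direction with a mean of at least 5 CPM; Atf4, Gclc, Gclm and others outside this rule were chosen after their values were seen. Members and lists were chosen with earlier results of these data known. Alternatives were other scalings (total counts, DESeq2 1.42.0 size factors, macrophage markers), filters, added CPM and calls.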

Additional observations from a re-analysis of the deposited data

How the results depend on the processing

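The 2 higher and 2 lower members were counted alike with total counts, DESeq2 size factors and scaling to the macrophage markers, and all 4 called members were called under each. Of the 12 macrophage markers, 1 was itself counted as higher and 2 as lower, Lyz2 among the latter, so they are no neutral reference. The macrophage scaling moved the median log2 ratio of all genes by -0.10, so that 583 genes were higher and 1177 lower instead of 808 and 904. Under it Slc7a8, at a ratio of 0.980, and Slc38a9, at 0.932 (0.955 with total counts), lay on the other side of 1. The median of the members stayed between -0.10 and 0.014. Without a filter 4 of 31 members were lower, Slc38a4 and Slc43a1 being added, beside 1280 of all 21261 genes with reads. Among genes averaging 10 CPM or more, 0 of 18 members were lower, beside 223 of all 8379 genes. At 2-fold 0 members were higher and 1 lower, beside 323 and 597 of all 12495 genes. With the interval bound past 1.5-fold 1 member was higher and 1 lower, beside 357 and 509 of all genes.

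Among the related lists, total counts left 0 other transporters, 2 ATF4 and 0 glutathione genes higher, and the macrophage scaling 0, 1 and 0. Under either, 6 arginine or glutamine genes were lower instead of 4, and with DESeq2 size factors 5 ATF4 genes were higher instead of 4. Over all genes, 651 were higher and 1061 lower with total counts, and 583 and 1177 with the macrophage scaling. DESeq2 size factors gave 830 and 888. Without a filter 2 other transporters and 2 glutathione genes were lower, beside 1280 of all 21261 genes with reads. At 10 CPM 0 other transporters, 0 sensing, 0 ATF4 and 2 arginine or glutamine genes were lower and 1 glutathione gene higher. Of all 8379 genes at that filter, 412 were higher and 223 lower. How many genes of each list passed the changed filters was not counted. At 2-fold the higher genes were 0 other transporters, 0 ATF4, 0 glutathione and 0 arginine or glutamine genes, and 1 sensing gene was lower. With the bound past 1.5-fold, 0 other transporters were higher and 0 lower, 1 sensing gene was lower, and 1 ATF4 and 1 glutathione gene were higher. Of all 12495 genes, 323 were higher and 597 lower at 2-fold, and 357 and 509 with that bound. The filters compare fewer or more genes by construction, the stricter calls admit fewer, and the cause of the moves with scaling was not tested. Of 92 recomputed member ratios, 82 stayed inside their counting interval and 0 called ones changed sign. That 0 was fixed in advance. Each scaling multiplies all ratios alike, and the TIPE1-KO over WT library size ratio ranged only from 1.27 to 1.38. Adding 0.5 CPM cannot carry a ratio across 1 at these levels. The light chain sum over Slc3a2 was 0.526 and 0.677 with the longest transcript, a length chosen after the data were seen. No paired analysis was possible because there was a single library per genotype. Few reads leave wide intervals for Slc36a2, Slc7a15 and the members under 1 CPM.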
